A study of Sus scrofa with 8 samples.

Results

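The genes described here encode the enzymes of glycolysis in the longissimus dorsi, a back muscle, of Korean native pigs and Yorkshire pigs. The members were chosen by name as 10 enzymes of the pathway, LDHA, ENO3, ALDOA, PGAM2, PGK1, TPI1, GPI, PFKM, GAPDH and HK2, and were found on the array through probe sets, each a group of short probes for a transcript, whose platform annotation gave exactly 1 gene symbol equal to a member. Of the 10 enzymes, 8 had such a probe set. ALDOA and HK2 had none and are not analysed here. The 8 enzymes, of 6765 genes named in this way, were held by 21 of the 24123 probe sets of the array, 14 of them for GAPDH and 1 for each other enzyme. Of the GAPDH probe sets 9 were array controls, which were given as values and not tested, so 12 member probe sets entered the test and 0 were lost to the filter on dim probe sets. All 8 genes were found by gene number in the Sscrofa11.1 gene table, where 0 symbols differed.

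The study compared muscle RNA of 4 Korean native pigs aged 7 months with that of 4 Yorkshire pigs aged 6 months, each on its own Affymetrix porcine array. Husbandry was shared by both breeds, per the labels, and no treatment is named for either. The muscle was cut at the level of the seventh to ninth ribs. The comparison asked which genes differ in expression between the breeds. Breed and age cannot be told apart, because the Korean native pigs were 1 month older. In whole muscle, fewer fibres of a type and less RNA per fibre cannot be told apart either.

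Glycolysis splits glucose into pyruvate in the cytosol and yields ATP without oxygen, and LDHA then turns pyruvate into lactate. Fast muscle fibres rely on it most, and the porcine longissimus is a largely fast, glycolytic muscle. Several steps have a muscle form, among them PFKM, PGAM2 and ENO3, whose relatives ENO1 and PGAM1 serve most other tissues. Lactate made by these enzymes after slaughter lowers the pH of pork.

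The deposited signals shared a common level, with a mean of 500.14 to 500.16 on all 8 arrays once the extreme 2% at each end was set aside. The hybridisation controls, bacterial and phage transcripts added to every array, were bright on 4 arrays, replicates 1 and 3 of each breed, and dim on the remaining 4. The ratio of 3′ to 5′ control signal for actin and EF1A, a sign of RNA and labelling quality, was highest on Korean native pig 1 and Yorkshire 3, at 3.81 and 3.61 log2 units, against 1.34 to 2.35 on the other 6 arrays. Its mean was 2.21 ± 1.10 in Korean native pigs, against 2.36 ± 0.91 for Yorkshire pigs (SD, n = 4). A two-sided exact permutation test gave p = 0.8, where 0.0286 is the smallest possible. The signal at the 99th percentile of all probe sets was 18107 to 21201 in Korean native pigs and 18312 to 22240 in Yorkshire pigs. Muscle markers were among the brightest probe sets, with CKM, the muscle creatine kinase, at 77237 ± 19292 in Korean native pigs, against 96188 ± 19460 for Yorkshire pigs (SD, n = 4).

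All 8 enzymes had lower mean signals in Korean native pigs, by 0.12 to 0.48 on the log2 scale, and none passed the test. The median change was -0.40, against -0.00255 over all 5331 tested genes, and 8 of 8 enzymes were below 0 against 50.4% of the genes. This was not particular to the enzymes. Fast fibre genes (8 of 8, median -0.32) and slow fibre genes (7 of 8, median -0.23) were below 0 too. After quantile normalisation the median of the enzymes was -0.14. The enzymes were correlated across animals, so they are not separate counts of a direction. By limma 0 of 8 enzymes and 0 of 14399 probe sets, or 0%, had an adjusted p under 0.05. At an unadjusted p under 0.05 there were 0 of the 8 enzymes, against 3.43% of genes and 3.96% of probe sets, and 1.69% of genes were at that level and lower in Korean native pigs. The 2 breeds overlapped in each enzyme, whereas 2.25% of genes showed no overlap, 1.11% with the lower values in Korean native pigs. Each of the 8 had a limma adjusted p of 0.999. A change is the mean of Korean native pigs minus that of Yorkshire pigs on log2(signal + 32). Since the arrays share a common level, it is a change relative to the rest of the array.

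GPI converts glucose 6-phosphate to fructose 6-phosphate. Its signals were 29402, 30785, 10958 and 23052 in Korean native pigs 1 to 4, against 29455, 33357, 20518 and 43600 in Yorkshire pigs 1 to 4. Korean native pig 3 was the lowest of all arrays and Yorkshire 4 the highest, and the other 6 arrays lay between. GPI had the most negative change of the 8, -0.48 (SE 0.33, 95% interval -1.20 to 0.23). Without Korean native pig 3 it was -0.15, and without Yorkshire 4 it was -0.32.

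PFKM, the muscle phosphofructokinase, catalyses the committed step of the pathway. It had signals of 30519, 28178, 20516 and 30142 in Korean native pigs, against 27950, 37457, 14503 and 48532 in Yorkshire pigs. The Yorkshire pigs thus held both the lowest and the highest value, and the Korean native pigs lay inside their range. The change of -0.12 (SE 0.32, 95% interval -0.81 to 0.58) was the nearest to 0 of the 8. It was 0.12 without Yorkshire 4 and -0.46 without Yorkshire 3.

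TPI1 interconverts the 2 triose phosphates. Its signals were 37919, 33361, 10001 and 18892 in Korean native pigs, against 24946, 35163, 20410 and 46681 in Yorkshire pigs. It spanned the widest range of the 8 enzymes, with Korean native pig 3 the lowest and Yorkshire 4 the highest, a 4.67-fold distance. The change was -0.45 (SE 0.39, 95% interval -1.31 to 0.40), or -0.07 without Korean native pig 3 and -0.24 without Yorkshire 4. Leaving out Korean native pig 1 gave -0.71.

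GAPDH, which oxidises glyceraldehyde 3-phosphate and is often used as a loading control, was represented by its brightest tested probe set. The signals were 87064, 66063, 97408 and 57940 in Korean native pigs, against 79245, 79368, 102080 and 146622 in Yorkshire pigs. Korean native pig 3, low for GPI and TPI1, was the highest Korean native pig for GAPDH. This was not particular to GAPDH, as the same animal was highest for CKM at 96146 and the fast fibre gene MYL1 at 99851. It was also highest for a 3′ actin control at 79396, while the fast fibre gene TNNT3 was highest on Korean native pig 1 at 77093. The change of GAPDH was -0.38 (SE 0.24, 95% interval -0.91 to 0.15), or -0.19 without Yorkshire 4.

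PGK1 makes the first ATP of the pathway's payoff phase. It had signals of 52730, 49361, 37527 and 39632 in Korean native pigs, against 54917, 54147, 39263 and 62517 in Yorkshire pigs. This was the steadiest of the 8, with a 1.67-fold distance between the extreme arrays, and in each breed replicate 3 was the lowest. The change was -0.23 (SE 0.20, 95% interval -0.66 to 0.20), or -0.14 without Yorkshire 4 and -0.36 without Yorkshire 3. Leaving out Korean native pig 3 gave -0.15.

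PGAM2, the muscle phosphoglycerate mutase, had signals of 70038, 59460, 36250 and 42602 in Korean native pigs, against 55301, 64735, 47125 and 112928 in Yorkshire pigs. Yorkshire 4 stood far above the other 7 arrays, while Yorkshire 1 to 3 fell within the range of the Korean native pigs. The change of -0.39 (SE 0.29, 95% interval -1.02 to 0.24) was -0.13 without Yorkshire 4 and -0.23 without Korean native pig 3.

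ENO3 is the muscle enolase, which forms phosphoenolpyruvate. Its signals were 81659, 62007, 73180 and 51616 in Korean native pigs, against 73472, 72322, 91617 and 121788 in Yorkshire pigs. Yorkshire 3 and 4 were above every Korean native pig, and Yorkshire 1 and 2 were not. The change was -0.41 (SE 0.22, 95% interval -0.88 to 0.07), or -0.25 without Yorkshire 4.

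LDHA, the muscle lactate dehydrogenase subunit, closes the anaerobic route. It had signals of 77296, 62728, 51661 and 51777 in Korean native pigs, against 76000, 74465, 72235 and 98983 in Yorkshire pigs. Korean native pigs 2 to 4 lay below all Yorkshire pigs, and Korean native pig 1 lay above Yorkshire 1 to 3. Its change of -0.41 (SE 0.19, 95% interval -0.83 to 0.01) had the smallest p of the 8 enzymes, an unadjusted limma p of 0.054. With each array left out in turn, the change of LDHA lay between -0.53 and -0.31.

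**Figure D1:**
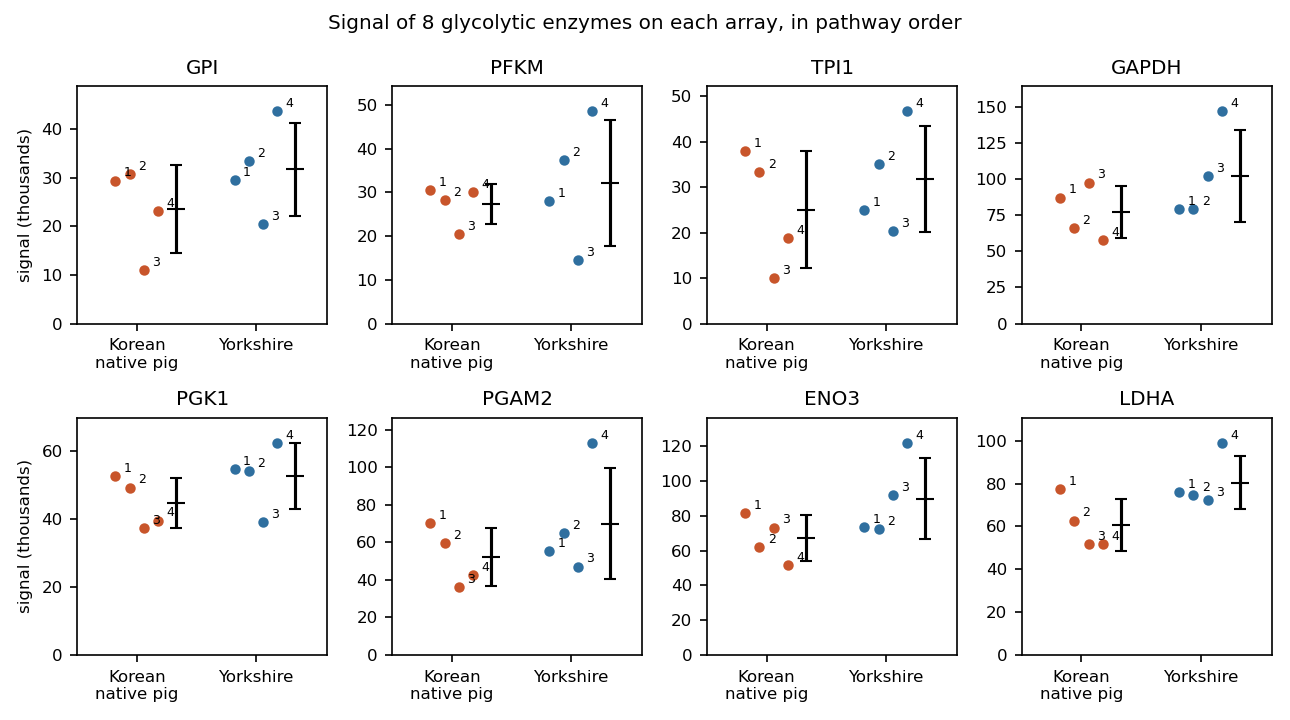
Signal (linear axis from 0) of the 8 enzymes on each array, in the order of the pathway, with Korean native pigs on the left and Yorkshire pigs on the right. Points are arrays numbered by replicate, bars are the mean ± SD of 4 arrays, and Yorkshire 4 is the highest point in all 8 panels.

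**Figure D2:**
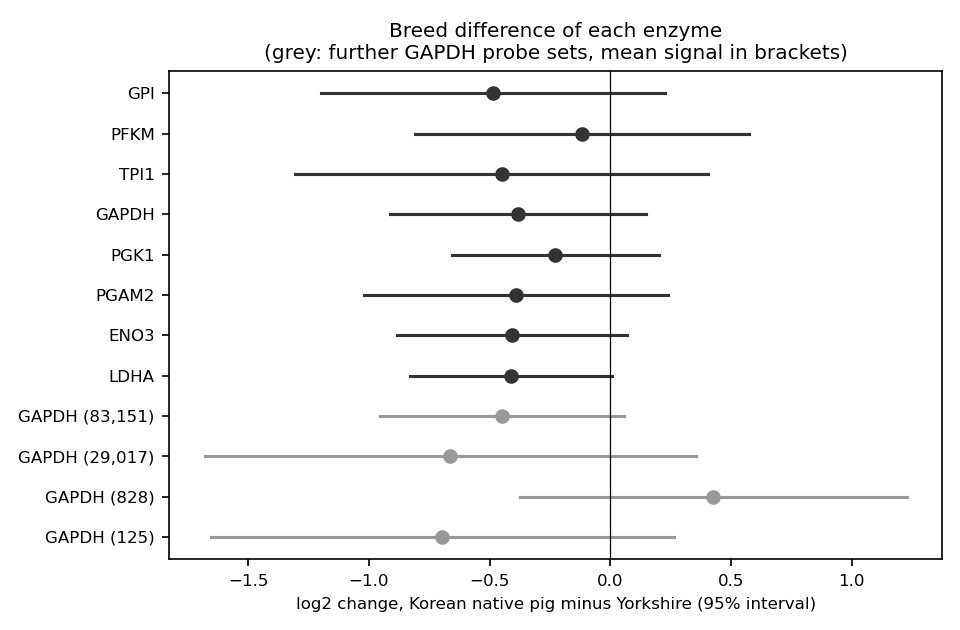
Log2 change (Korean native pig minus Yorkshire) with its 95% interval for the 8 enzymes in black and for the 4 further tested GAPDH probe sets in grey, with their mean signals in brackets. All 8 black intervals include 0.

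On the deposited scale the same animal was highest in every enzyme. Yorkshire 4 had the highest signal of the 8 arrays in 8 of 8 enzymes, against 19.5% of all tested genes. Korean native pig 3 had the lowest in 5 of 8, namely LDHA, PGAM2, PGK1, TPI1 and GPI, against 14.7% of genes, and Korean native pig 4 the lowest in ENO3 and GAPDH. After quantile normalisation, which gives all arrays the same distribution of signals, Yorkshire 4 was highest in 5 of 8, against 20.2% of genes, and LDHA, ENO3 and PGK1 were highest on Yorkshire 1, Korean native pig 1 and Yorkshire 2. Korean native pig 3 was then lowest in 6 of 8, against 16.3% of genes. The mean of the 8 enzymes, each centred on its own mean over the 8 arrays, was 0.19, -0.01, -0.55 and -0.35 log2 units in Korean native pigs 1 to 4, against 0.03, 0.18, -0.20 and 0.71 in Yorkshire pigs 1 to 4. Yorkshire 4 also had the highest 99th percentile, 22240, and the highest 3′ actin control signal, 137040 against 42525 to 92018 on the other 7 arrays. Their part in the result was not tested.

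The median change of the 8 enzymes was -0.22 without Yorkshire 4 and -0.19 without Korean native pig 3. It was -0.52 with Korean native pig 1 left out. Within the 4 arrays whose hybridisation controls were bright, the changes were between -0.45 for GPI and 0.31 for PFKM, with a median of -0.07. Within the 4 arrays of dim controls they were between -0.80 for GAPDH and -0.40 for PGK1, with a median of -0.64. The difference between these classes did not pass in any enzyme (limma interaction term, adjusted p = 0.999 for all 8, unadjusted p of 0.0873 for GAPDH and 0.103 for PFKM). Without the 2 arrays of highest 3′ to 5′ ratio the median was -0.55 and all 8 stayed below 0, with limma adjusted p of at least 0.984. At an unadjusted limma p under 0.05 there were then 4 of 8 enzymes, LDHA, PGAM2, GPI and TPI1, against 614 of 14399 probe sets. The share of genes was not taken, and these 4 had r of 0.769 to 0.962 with each other over all arrays. The arrays left out had the highest enzyme mean of Korean native pigs, 0.19, and the lowest of Yorkshire pigs, -0.20. Leaving them out thus widens the change by itself, and the part of RNA quality was not tested. After quantile normalisation the enzymes of brightest signal had smaller changes, -0.05 for GAPDH, -0.12 for ENO3 and -0.16 for LDHA. Giving all arrays the same distribution leaves the brightest probe sets little room to vary. GAPDH then lay between 81868 and 94840, against 57940 to 146622 as deposited. TPI1 at -0.43 and GPI at -0.46 kept nearly their size under that setting, and the median was -0.14.

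**Figure D3:**
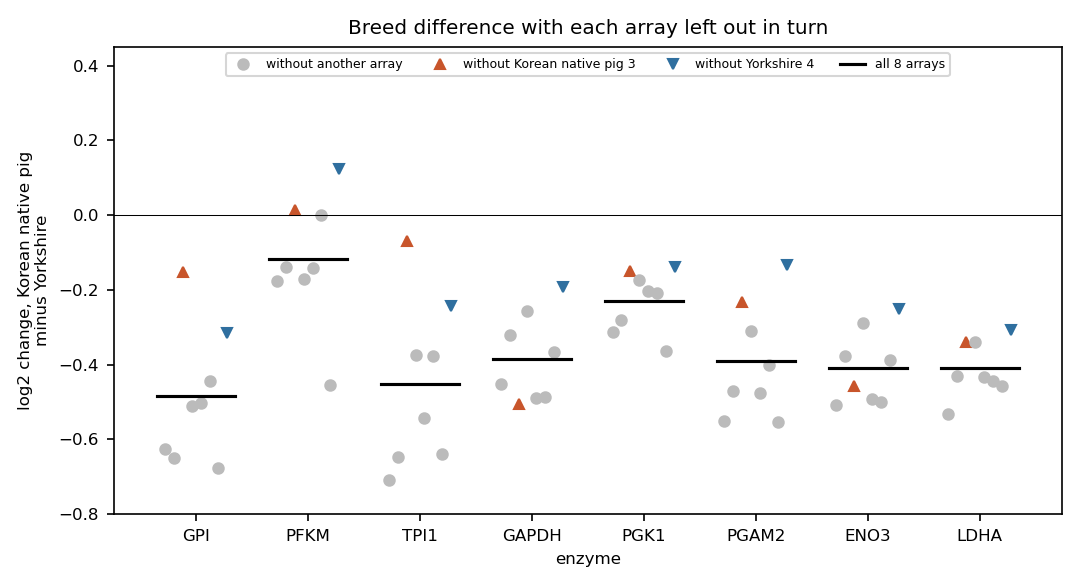
Log2 change (Korean native pig minus Yorkshire) of each enzyme with all 8 arrays (black line) and with each array left out in turn (points). Without Yorkshire 4 the changes lie higher in all 8 enzymes, and PFKM turns to 0.12.

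The GAPDH probe sets did not give 1 common picture. A further tested probe set of mean signal 83151 had a change of -0.45 and followed the representative one across animals (r = 0.991). Another, of mean signal 29017, had signals of 31377, 31212, 7073 and 23136 in Korean native pigs, against 29673, 32506, 17560 and 59598 in Yorkshire pigs. Its change was -0.66 (SE 0.47). It was lowest on Korean native pig 3, as TPI1 and GPI were. Across the 8 animals it followed TPI1 (r = 0.952) and the mean of the 6 enzymes other than ENO3 and GAPDH (r = 0.960), and not the representative GAPDH probe set (r = 0.151). The 2 remaining tested probe sets were dim, with mean signals of 828 and 125 and changes of 0.43 and -0.70. The dimmest read 17.5 to 153 in Korean native pigs and 91.1 to 203 in Yorkshire pigs, partly below the 95th percentile of the negative control probe sets, 108.1.

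Control probe sets for the 3′ part of GAPDH gave differences of mean log2 signal of -0.35, -0.35 and -0.38, and all had signals of at least 51813 on each array. Controls for the middle part gave -0.28, -0.32 and -0.03. The one at -0.03 was highest on Korean native pig 3, at 68067, and read 48105 on Yorkshire 4. Its r with the representative probe set was -0.121, against 0.971 and 0.846 for the others. Of 3 controls for the 5′ part, 1 read 5289 on Korean native pig 1 and 6379 on Yorkshire 3, against 57760 to 102902 on the other 6 arrays. Another read 25174 and 29940 on these arrays, against 37987 to 84335 on the others, and the third read 43695 and 56635, against 53325 to 204990. These 2 arrays also had the highest 3′ to 5′ ratio of actin and EF1A. GAPDH has processed pseudogenes in mammals, and whether a probe set also binds transcripts of other copies was not tested.

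By mean signal the enzymes were ordered GAPDH, ENO3, LDHA, PGAM2, PGK1, PFKM, TPI1 and GPI, with means between 89474 and 27641. All stood among the brightest 171 of the 24123 probe sets. Probe sets bind their targets with different strength, so this is an order of signals and not of transcript amounts. GAPDH was highest of the 8 on each array, and PGK1 lay above PFKM on 8 of 8 arrays. The first place of GAPDH rests on the brightest of several tested probe sets, where each other enzyme had 1. Another tested GAPDH probe set had a mean signal of 29017, and with the dimmest one GAPDH came at place 8 of 8. The neighbours ENO3 and LDHA changed places between arrays, with ENO3 higher on 4 of 8 (mean log2 gap 0.14 ± 0.21, SD), and so did TPI1 and GPI, also 4 of 8, and PFKM and TPI1, with PFKM higher on 5 of 8 (gap 0.12 ± 0.51, SD). The mean gaps of these neighbours were not larger than their SD over the arrays. Nor were those of LDHA and PGAM2 (0.26 ± 0.26, SD) or PGAM2 and PGK1 (0.26 ± 0.28, SD), although the order held on 7 of 8 arrays in both. No gap was tested.

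Across animals the signals of the enzymes were positively correlated in all 28 pairs, though no pair passed after adjustment. The median Pearson r of log2 signal over the 8 arrays was 0.75, against 0.00853 for all pairs of tested genes. In 15 of 28 pairs r was 0.7 or more, which held for 3.71% of all gene pairs. With each breed's mean taken off, the median over the 8 pooled arrays was 0.713, and the lowest r was -0.119. Neither breed was taken alone, and Yorkshire 4 was kept under this setting. All pairs share the arrays, their scaling and their labelling, and genes are not independent replicates. The enzymes were all among the brightest 171 probe sets, and no pairs of similarly bright genes were taken for comparison. The mean of the enzymes had r = 0.744 with the log2 99th percentile signal of the arrays. Without the 2 arrays farthest from the median of that percentile it was -0.0397. Its part in the correlations was not tested.

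Among the 28 pairs ENO3 and GAPDH had the highest correlation, with r = 0.966 (exact permutation p = 0.000397) and Spearman's rho = 0.881 (exact permutation p = 0.00724), both two-sided. TPI1 and GPI followed with r = 0.962 (exact permutation p = 0.000546) and rho = 0.833 (exact permutation p = 0.0154). PGAM2 and TPI1 had r = 0.910 (exact permutation p = 0.0027) and rho = 1 (exact permutation p = 4.96e-05, the smallest two-sided p that rho can give here), so these animals had the same order in both enzymes. These p-values were adjusted over 42612 relations, each of the 8 enzymes with every tested gene. None of those relations had an adjusted p under 0.05, and for these 3 pairs it was 0.321, 0.321 and 0.35 for r and 0.491, 0.528 and 0.423 for rho. At an unadjusted p under 0.05 there were 15 of the 28 enzyme pairs and 9.15% of all relations. Without the 2 arrays farthest from the median of the enzyme named first in each pair, r was 0.842, 0.853 and 0.977. The profile of ENO3 and GAPDH was not particular to these 2 enzymes. For the 3′ actin control the signals were 71080, 49353, 79396 and 42525 in Korean native pigs, against 67670, 60245, 92018 and 137040 in Yorkshire pigs. CKM was also highest within its breed on Korean native pig 3, at 96146, and on Yorkshire 4, at 118954. The reason was not tested.

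The lowest correlations involved GAPDH and ENO3. PFKM and GAPDH had r = 0.123 (exact permutation p = 0.775) and rho = 0.0238 (exact permutation p = 0.977), and r = -0.41 without the 2 farthest arrays. GPI and GAPDH had r = 0.123 (exact permutation p = 0.758) and rho = 0 (exact permutation p = 1), and r = -0.178 without the 2 farthest arrays. ENO3 and PFKM had r = 0.169 (exact permutation p = 0.701) and rho = 0.0476 (exact permutation p = 0.935), and r = -0.578 without the 2 farthest arrays. Adjusted over the same 42612 relations these 3 pairs had p of 0.955, 0.95 and 0.935 for r. TPI1 and GAPDH lie on the same chromosome of Sscrofa11.1 with 23 annotated genes between them, and their r was 0.199, or -0.285 without Yorkshire 4. Leaving out Korean native pig 3 gave 0.536.

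The correlations differed between 2 sets of enzymes, which were described after their values were seen. Among LDHA, PGK1, PGAM2, TPI1, GPI and PFKM the 15 pairs had r of 0.48 to 0.962, with a median of 0.838. Between these 6 and ENO3 or GAPDH the 12 pairs had r of 0.123 to 0.819, with a median of 0.365. The ranges overlapped, and LDHA with ENO3, at 0.819, was above 7 of the 15 pairs among the 6. Without Yorkshire 4 the median was 0.75 among the 6, where all 15 pairs stayed above 0, and -0.108 between the sets, where 5 of 12 did, while ENO3 and GAPDH kept r = 0.923. Without Korean native pig 3 the median between the sets was 0.529, and all 12 pairs were above 0. After quantile normalisation ENO3 and GAPDH had r = 0.465, and ENO3 had r = 0.853 with TPI1. Under that setting ENO3 had r of 0.3 to 0.853 with the 6 and GAPDH had r of 0.168 to 0.566, so the separation of ENO3 depends on the normalisation. The brightest probe sets can vary little under it, with GAPDH between 81868 and 94840. The brightness classes of the hybridisation controls hold 4 arrays each, too few for a correlation.

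**Figure D4:**
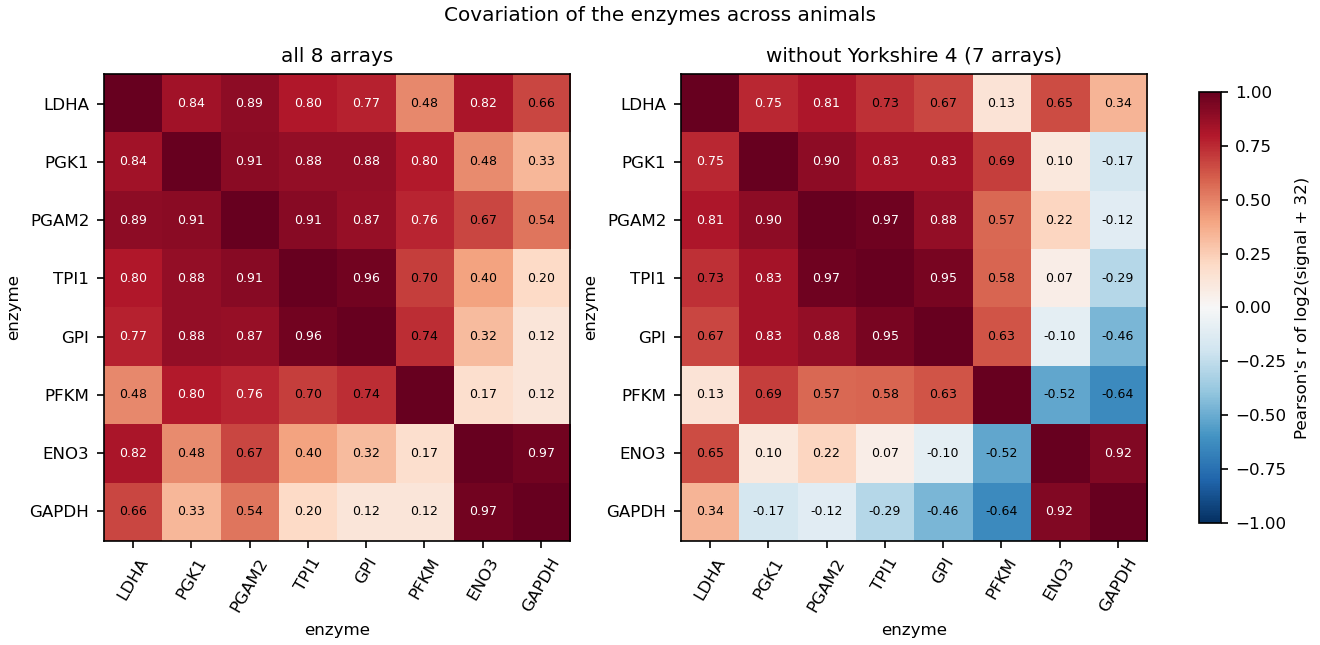
Pearson's r of log2(signal + 32) between the 8 enzymes over all 8 arrays (left) and without Yorkshire 4 (right), where red is positive and blue negative. LDHA, PGK1, PGAM2, TPI1, GPI and PFKM stay positive with each other in both panels, and GAPDH turns negative with 5 of them on the right.

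Of all genes outside the enzymes, the fast skeletal troponin T gene TNNT3 was most like their mean across the 8 arrays, with r = 0.974. Its signals were 77093, 63882, 53366 and 53016 in Korean native pigs, against 69377, 70564, 61348 and 108107 in Yorkshire pigs. Yorkshire 4 was the highest array here too. Without Yorkshire 4 its r was 0.951. The next 4 were SNRPA, a U1 spliceosome protein, at 0.96, SMAD1, a mediator of BMP signals, at 0.957, the pentraxin PTX3 at 0.954 and the ryanodine receptor RYR3 at 0.951. The 3 least alike were SELENOP, a selenium carrier, at -0.952, TIPIN, a replication fork protein, at -0.95 and FAM92A at -0.944. Some of these genes were near background, below the 108.1 of the negative controls on single arrays. RYR3 read 82.6 on Korean native pig 3 and 97.5 on Yorkshire 3, TIPIN 107.9 on Yorkshire 2 and 90.0 on Yorkshire 4, and FAM92A 82.7 on Yorkshire 4. These correlations are the extremes of 5323 genes and are given without a test.

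Fast fibre genes had higher correlations with the enzymes than slow fibre genes, and this difference was not tested. Of 12 fast fibre genes chosen, MYH1, MYH4, ACTN3 and PVALB were not tested, so MYH2 was the only fast myosin heavy chain gene. Of 9 slow fibre genes, MYOZ2 was not tested. The 8 tested fast fibre genes had a median r of 0.843 with the mean of the enzymes, and the 8 slow fibre genes 0.0401, against 0.0388 for all 5323 genes. In the fast list TNNI2, TPM1, MYH2 and ATP2A1, which encodes the calcium pump of fast fibres, had r of 0.86, 0.858, 0.852 and 0.833, while TNNC2, MYLPF and MYL1 had 0.503, 0.456 and 0.357. Without Yorkshire 4 these 3 had r of -0.106, 0.0112 and -0.0556, and the other 5 had 0.612 to 0.951. The slow myosin gene MYH7 was at 0.0713. Without Yorkshire 4 the medians were 0.63 and -0.127, and after quantile normalisation they were 0.721 and -0.383. The fast fibre genes were all below 0 between the breeds (8 of 8, median -0.32), as were 7 of 8 slow fibre genes (median -0.23). By limma 0 of these 16 passed, with adjusted p of 0.999, and 0 were at an unadjusted p under 0.05. TNNC2 was at -0.42 and MYL1 at -0.33 in the fast list, and MYL2 was at -0.24 and MYH7 at -0.28 in the slow list.

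**Figure D5:**
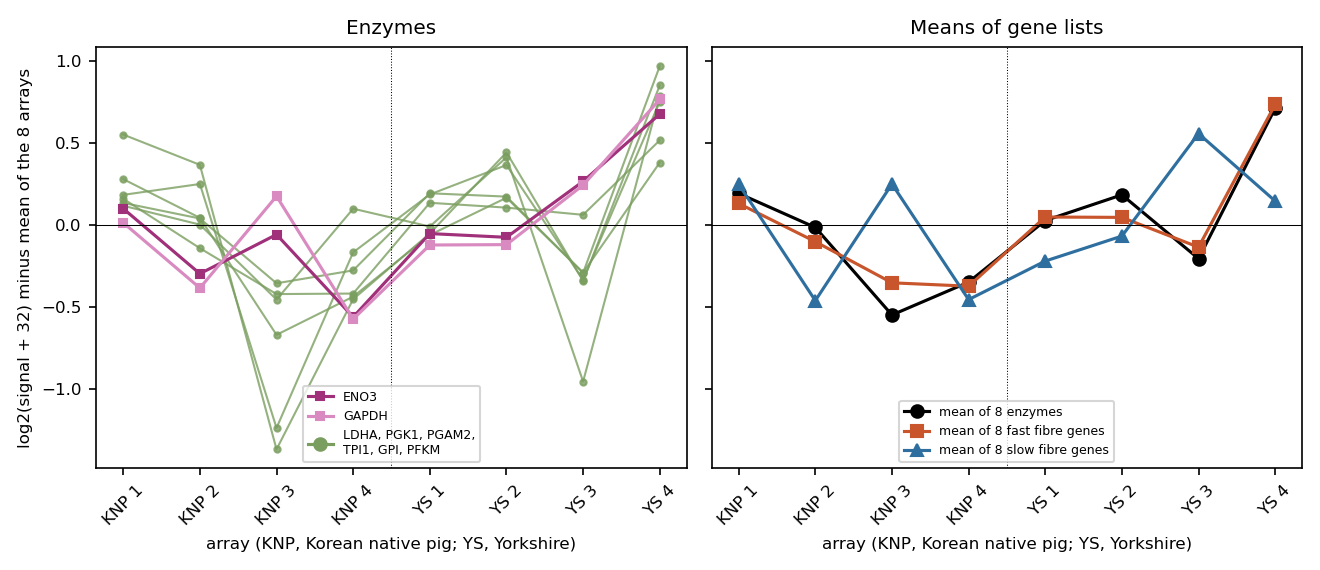
Log2(signal + 32) on each array minus the mean of the 8 arrays, for the single enzymes (left) and for the means of the 8 enzymes, 8 fast fibre genes and 8 slow fibre genes (right), with Korean native pigs left of the dotted line. The enzyme and fast fibre means run close together, with Yorkshire 4 at 0.71 and 0.74, while the slow fibre mean is highest on Yorkshire 3 at 0.56.

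Other isoforms and side enzymes of glycolysis did not show a common direction. Of 30 such genes 15 were tested, 10 below 0 and 5 above, with a median of -0.06, and 0 passed the adjusted threshold. ENO1, the widely expressed enolase, had signals of 2905, 3058, 1148 and 1857 in Korean native pigs, against 2371, 3993, 3516 and 5168 in Yorkshire pigs. Its change was -0.79 (SE 0.32, 95% interval -1.48 to -0.09), with an unadjusted limma p of 0.0309 and an adjusted p of 0.999. It was the 1 gene of 15 at an unadjusted p under 0.05, against 3.43% of all tested genes. Korean native pig 3 was again the lowest array and Yorkshire 4 the highest, and r with the mean of the enzymes was 0.856. ALDOC, the brain form of aldolase, was at -0.48 (SE 0.33). LDHB, the heart form of lactate dehydrogenase, was at -0.15 with r = -0.363 to the mean of the enzymes, and the pyruvate kinase gene PKM was at -0.02.

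Of 10 genes of glucose and lactate transport 7 were tested, 5 below 0 and 2 above, with a median of -0.24. BSG, the partner that carries lactate transporters to the membrane, had signals of 796, 722, 659 and 470 in Korean native pigs. In Yorkshire pigs they were 1043, 973, 1303 and 1125, without overlap. Of all tested genes 2.25% did not overlap, 1.11% with the lower values in Korean native pigs. The change of BSG, -0.74 (SE 0.21), had an unadjusted limma p of 0.0043 and an adjusted p of 0.999. SLC2A4, the insulin-responsive glucose carrier, was at -0.68 (SE 0.39). Of 9 tested genes of the NADH shuttles, which move reducing power into mitochondria, 5 were below 0 and 4 above, with a median of -0.05, MDH1 at -0.31 and GPD1 at -0.40. GPD1, the cytosolic glycerol phosphate dehydrogenase, had r = 0.937 with the mean of the enzymes. Of 9 tested transcription factors and coactivators, chosen for a link to glycolytic genes, 5 were above 0 and 4 below, with a median of 0.05. Among them the coactivator PPARGC1A was at -0.96 (SE 0.41) and MEF2D at 0.26. PPARGC1A had signals of 510 to 745 in Korean native pigs, against 683 to 1428 on Yorkshire 1, 2 and 4 and 3478 on Yorkshire 3. In these 3 lists 0 genes passed by limma. BSG of 7 and PPARGC1A of 9 tested genes were at an unadjusted p under 0.05, against 3.43% of all tested genes. They are named for the smallest p of their lists.

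Markers of other tissues were measured beside the enzymes, and their part in the results was not tested. The summed signal of 5 muscle markers was 233910 to 375695 in Korean native pigs and 297046 to 483158 in Yorkshire pigs, with 4 of 5 below 0. For 3 red cell markers it was 928 to 1209 in Korean native pigs and 984 to 1163 in Yorkshire pigs, and the changes were -0.47 for ALAS2, 0.28 for HBM and 0.07 for HBB. Their r with the mean of the enzymes went both ways, at 0.847 for ALAS2, -0.0252 for HBM and -0.813 for HBB. The 6 adipocyte markers summed to 5339 to 11606 in Korean native pigs and 6926 to 13720 in Yorkshire pigs, with 5 of 6 below 0, CFD at 0.70 and CIDEA at -0.79. The 5 connective tissue markers, all below 0, summed to 9762 to 16799 in Korean native pigs and 12832 to 22630 in Yorkshire pigs, with FBN1 at -0.52 and DCN at -0.34. The 6 endothelial markers summed to 3973 to 4631 in Korean native pigs and 4044 to 5850 in Yorkshire pigs, with 3 of 6 below 0. Among them EGFL7 was the 1 gene of 6 at an unadjusted limma p under 0.05, against 3.43% of all tested genes. EGFL7 was at -0.62, with an unadjusted limma p of 0.0312 and an adjusted p of 0.999, and ENG was at -0.64. Their r with the mean of the enzymes was 0.503 and 0.857, or 0.146 and 0.772 without Yorkshire 4. The 4 immune markers summed to 499 to 3818 in Korean native pigs and 625 to 2067 in Yorkshire pigs, with AIF1 at 0.71 (SE 0.55) and CD3E at 0.11 (SE 0.45). Korean native pig 4 read 930 for AIF1 and 502 for CD3E, against 122 to 339 and 83.3 to 157 on the other Korean native pigs. All of the summed ranges overlapped between the breeds, and by limma 0 markers passed, with adjusted p of 0.999.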

How the data were processed

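RNA of longissimus muscle from 8 pigs was labelled with biotin and hybridised to Affymetrix arrays, per the labels' protocols. The authors deposited linear signal intensity values per probe set, and the submitters' processing notes name GCOS 1.3. The summarisation method, scaling target, filters and genome build were not given in the sources used here. The table had 0 further value columns. Symbols came from GEO's platform annotation, which gave 1 symbol to 10099 probe sets, several to 198 and none to 13826. A probe set with several symbols named no gene.

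Values were transformed to log2(signal + 32). The 124 control probe sets and the dimmest 40% of the rest by mean were left out, which left 14399 probe sets above a signal near 98.6. In R 4.3.3, limma 3.58.1 (lmFit, eBayes with trend) was run on all 8 arrays, with Benjamini-Hochberg adjustment over all probe sets and a threshold of 0.05. A gene was its probe set of highest mean signal, which gave 5331 genes. Fits and permutation tests were tested on simulated data. Precision is limited by the number of arrays, and the median SE of an enzyme's change was 0.266.

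The members and lists were chosen with earlier results of these data known. Named were all members, the 2 genes of smallest p in each list, the 5 genes most and 3 least like the members' mean, and the 3 highest and 3 lowest member pairs; other named genes were chosen after their values were seen. The lists were other glycolysis isoforms, glucose and lactate transport, NADH shuttles, transcription factors and coactivators, and fast and slow fibre genes. Further lists held markers of muscle, red cells, adipocytes, connective tissue, endothelium and immune cells. Arrays of a breed are biological replicates, per the labels. Alternatives were other pseudocounts, filters, normalisations, blocks, probe set rules and arrays left out.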

Additional observations from a re-analysis of the deposited data

Results flagged for a closer look

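LDHA on Yorkshire 4 lay apart from the other Yorkshire pigs. Its gap to the next array was 0.839 of the range of the 4 Yorkshire arrays on the log2 scale, above Dixon's 95% critical value for 4 samples, with signals of 98983 on Yorkshire 4 and 72235 to 76000 on Yorkshire 1 to 3. This was 1 of 16 groups of 4 arrays checked for the enzymes, and chance marks about 1 in 20 groups.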

How the results depend on the processing

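Under 22 other settings the 8 enzymes gave 176 changes, of which 171 kept their direction and 0 passed (smallest limma adjusted p = 0.964). The 5 that turned were PFKM at 0.31 and GAPDH at 0.034 within the bright arrays, and PFKM at 0.0143, 0.000297 and 0.12 when Korean native pig 3, Yorkshire 2 or Yorkshire 4 was left out. The cause was not tested. With each array left out in turn, the number of enzymes below 0 was 7 to 8, the median change -0.52 to -0.19, the median r 0.605 to 0.821, and 0 to 0 enzymes or probe sets passed. By enzyme the changes were -0.53 to -0.31 for LDHA, -0.51 to -0.25 for ENO3, -0.55 to -0.13 for PGAM2, -0.36 to -0.14 for PGK1, -0.71 to -0.07 for TPI1, -0.68 to -0.15 for GPI, -0.46 to 0.12 for PFKM and -0.51 to -0.19 for GAPDH. The median r was 0.526 within the bright and 0.952 within the dim arrays, over 4 arrays each, too few to read. With the lowest GAPDH probe set in place of the brightest, GAPDH moved to place 8 of 8 in the order by signal. With the replicate number as a block 1 probe set passed, that of NR4A3 (limma adjusted p = 0.00943), and no enzyme did (adjusted p = 0.992). The smallest unadjusted limma p of an enzyme was then 0.0463, for GPI. Arrays of the same number had correlated deviations of -0.0434, 0.306, 0.102 and 0.0536 for replicates 1 to 4. Korean native pigs 2, 3 and 4 correlated best with the Yorkshire array of their own number, and Korean native pig 1 with Yorkshire 3. The hybridisation controls also followed the number, bright for replicates 1 and 3 of both breeds. The main test did not take the numbers as pairs, and whether arrays of a number were processed together was not tested. Signals near the 108.1 of the negative controls concern only the dimmest GAPDH probe set among the enzymes. The promoter motif search was not run.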
